A study of Danio rerio with 9 samples.

Results

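The proteasome is the protease that degrades proteins tagged with ubiquitin, and the genes of its subunits and assembly factors were followed in RNA sequencing libraries of zebrafish embryos. The genes were chosen by name. Every row of the deposited table whose symbol began with psma, psmb, psmc, psmd, psme, psmf or psmg and a digit was taken, which gave 52 genes of 21109 genes or transcripts in the table. Of these, 50 encode proteasome proteins: 10 of the alpha ring and 8 of the beta ring of the core, 11 of the base and 9 of the lid of the regulatory cap, 7 assembly chaperones, and 5 activators or inhibitors. The other 2, psmc3ip and psme3ip1, are named after a subunit they were found with. They are counted with the rest and described apart.

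The libraries fall into 3 groups of 3, made from polyA-selected RNA of tissue that the submitters label as trunk. Embryos of the first group, control MO, received a control morpholino, an antisense oligonucleotide. Those of the second, sf3b1 MO, received a morpholino that targets sf3b1, a gene for a spliceosome protein of the branch point complex, and those of the last, sf3b1 MO + As2S2, also received the arsenic sulfide As2S2. The labels used here give no strain, age, morpholino dose or As2S2 dose, and do not say whether the replicates came from separate clutches, so that the p-values below measure the spread between these libraries only.

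As background, the core particle is a barrel of alpha and beta rings. The alpha rings gate the entrance, and 3 of the beta subunits cut the chain: psmb6 after acidic residues, psmb7 after basic ones and psmb5 after hydrophobic ones. The cap has a base, with the ATPases psmc1 to psmc6 that unfold and thread the substrate, and a lid, with the deubiquitinase psmd14. Its ubiquitin receptors include psmd4. Dedicated chaperones build core and cap and leave the finished particle. In mammals, the transcription factor NFE2L1 raises the genes of all these subunits together when the protease is inhibited.

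The targeted gene was read first. The table gave sf3b1 FPKM (fragments per kilobase, a level per transcript length relative to library size) of 173, 174 and 166 in control MO, 109, 106 and 108 in sf3b1 MO and 169.7, 171 and 167 in sf3b1 MO + As2S2. Counts of the same libraries went the other way: 534, 546 and 541 CPM (counts scaled to library size) in control MO and 888, 889 and 853 in sf3b1 MO (edgeR log2 fold change 0.70, SE 0.03, adjusted p = 1.97e-10). For sf3b1 MO the 2 measures thus disagreed. For sf3b1 MO + As2S2 there are only FPKM, and they lie in the range of control MO. The labels do not say how the morpholino acts on the RNA, so that neither measure was read for or against the labels. In what follows sf3b1 MO and sf3b1 MO + As2S2 stand for the libraries that carry those labels. For the proteasome genes both measures moved alike: the log2 ratios of sf3b1 MO to control MO from FPKM and from counts differed by at most 0.096, and 2 of the 52 genes, psma1 and psma2b, had opposite signs near 0. Of 20344 genes with both measures, 3.1% differed by more than 0.2.

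Counts were given for control MO and sf3b1 MO, with 21942696 to 28702980 counts per library. The 52 genes took 0.356% to 0.366% of the counts in control MO and 0.309% to 0.326% in sf3b1 MO. Genes of muscle were abundant, as the trunk label implies: 16 muscle genes summed to 26403 to 27069 FPKM in control MO, 12582 to 13164 in sf3b1 MO and 6996 to 7128 in sf3b1 MO + As2S2. edgeR called 15 of them lower in sf3b1 MO, beside 25.9% of all genes, and limma called 13 lower with As2S2 against sf3b1 MO on the centred scale, beside 27.4%. Lens and photoreceptor genes, which are not trunk genes, were also present: 15 of them summed to 5941 to 6082, 4578 to 4670 and 1205 to 1221 FPKM. White blood cell genes were low, with 11 of 23 listed in FPKM and sums of 14.5 to 16.3, 17.2 to 22.6 and 14.3 to 15.9 FPKM, while of the 13 with counts edgeR called 3 higher and 3 lower in sf3b1 MO. Of 10 germ line genes listed, 1 was in the table. It had counts but not FPKM in all 9 libraries, and edgeR did not call it in sf3b1 MO. In such whole tissue, fewer cells of a type and less RNA per cell cannot be told apart, and the part of these tissue genes in the proteasome results was not tested.

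In control MO the proteasome genes spanned a wide range of levels, with class medians of 37.3 to 83.7 FPKM for the rings, base and lid, 11.2 FPKM for the assembly chaperones and 9.29 FPKM for the activators and inhibitor. The median of the 50 proteasome genes was 41.0 FPKM, 44 of the 52 genes reached 10 FPKM, 18 reached 50 FPKM and 4 reached 100 FPKM. The highest means were psma3 at 117, psmb7 at 115, psmb1 at 111 and psma4 at 106 FPKM. Not every subunit of the finished particle sat near that level. psmb5, which belongs to the same ring as psmb7, averaged 20.2 FPKM, psmc4, an ATPase of the base, 19.2 FPKM, and psmd2, the large scaffold of the base, 13.5 FPKM. The psmd2 value leaves out a second row of the table, PSMD2 in capitals, with which it would sum to 61.3 FPKM. The median of the 50 proteasome genes was 31.0 FPKM in sf3b1 MO and 24.4 FPKM in sf3b1 MO + As2S2.

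**Figure D1:**
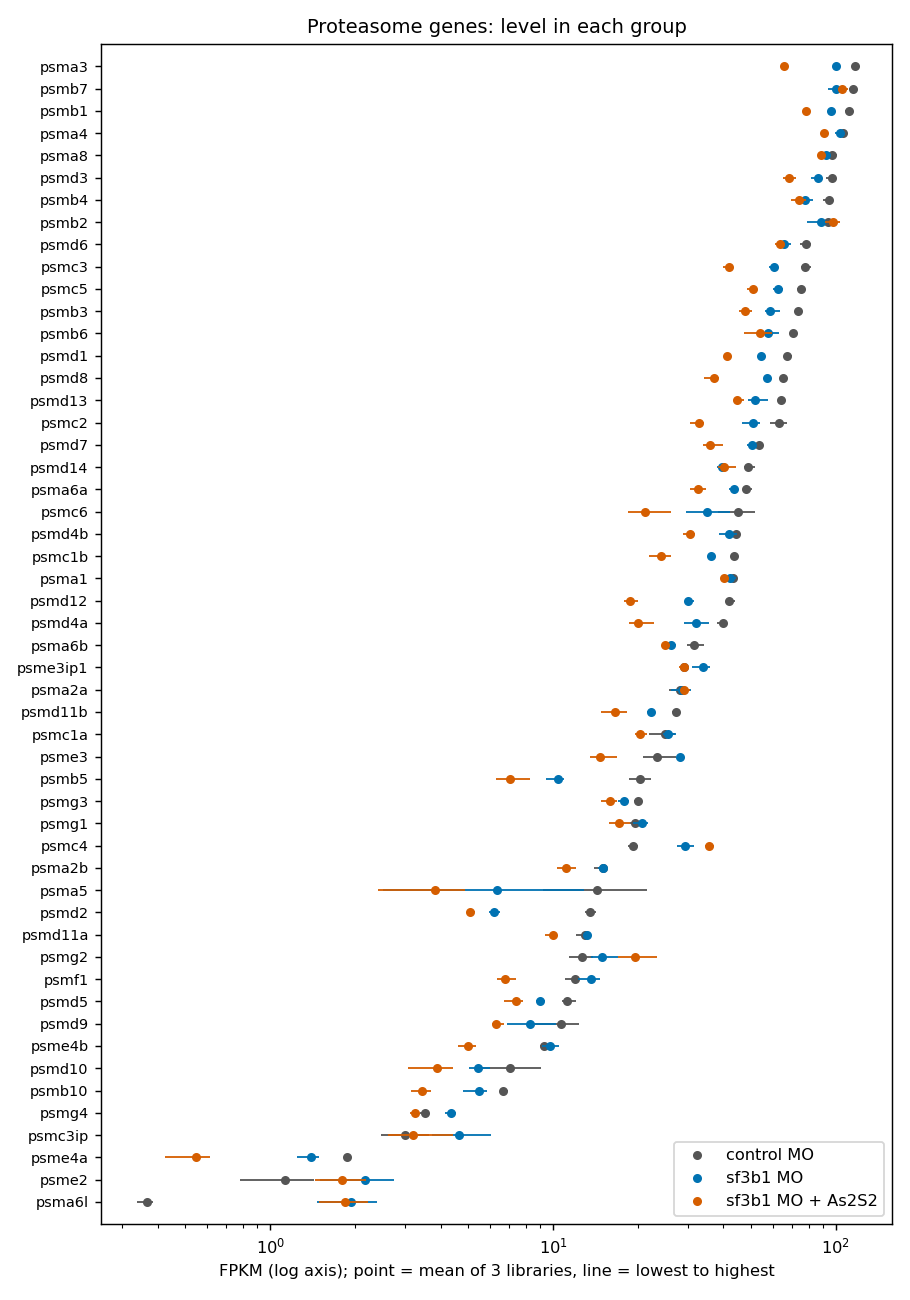
Mean FPKM of the 52 genes (log axis) in each group, with a line from the lowest to the highest of 3 libraries, ordered by control MO. Most genes run from control MO on the right to sf3b1 MO + As2S2 on the left. The means of psmc4, psmg2, psma6l, psme2, psmb2, psma2a and psmc3ip lie farther right with As2S2 than in control MO.

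The design gives 3 comparisons. Between control MO and sf3b1 MO, the counts were tested with edgeR. The As2S2 libraries have FPKM only in the table, and both comparisons that use them were tested with limma on log2(FPKM + 1) after each library was centred on its median gene. The scale needs a statement of its own: without centring, the median of all 18013 genes tested was -0.20 (log2) for sf3b1 MO + As2S2 against sf3b1 MO and -0.25 against control MO. Genes of at least 20 FPKM had a median of -0.15 and -0.07, so that another scale, centred on those genes, was added after the data were seen. All 52 genes were tested in each comparison. psma6l, at 0.339 to 0.384 FPKM in control MO, passed the minimum of 1 FPKM in 3 libraries only through the other groups, as did psme2, with 2 control MO libraries at the minimum, and psme4a only through control MO and sf3b1 MO. The limma calls of these 3 genes that set a high group against a low one are counted below but are no evidence, and their FPKM are given as a description. The comparisons share libraries and are not independent of each other.

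In sf3b1 MO against control MO, 37 of the 52 proteasome genes had a negative log2 fold change, beside 10628 of the 20723 genes tested. edgeR called 24 of the 52 genes lower and 7 higher at an adjusted p under 0.05, beside 25.9% of all genes tested called lower and 25.2% called higher. The median log2 fold change of the 52 genes was -0.18 and that of all genes -0.02. Lower calls lay in the beta ring (6 of 8), the base (7 of 11) and the lid (7 of 9), with 2 of 10 in the alpha ring, 1 of 7 assembly chaperones and 1 of 5 activators or inhibitors. Among the genes called, the largest falls were those of psmd2, psmb5 and psmd12; psma5 had a lower value that was not called, and the 2 psmd2 rows together had a log2 ratio of -0.66 in CPM. Of the lower calls, 20 held without any 1 library; psma6b, psmb7, psmd3 and psmd5 were lost without at least 1 of control MO replicates 1 and 3 and sf3b1 MO replicates 1 and 3. The higher calls rested on less: their number was 4 without control MO replicate 1 or 3 and 3 without sf3b1 MO replicate 2, and psma6l and psmc4 alone held without any 1 library.

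In sf3b1 MO + As2S2 against sf3b1 MO, the calls went both ways. On the centred scale limma called 20 of the 52 lower and 11 higher, beside 27.4% and 30.2% of all genes. Without centring it called 34 lower and 2 higher, beside 44.5% and 17.3%. With centring on genes of at least 20 FPKM it called 25 lower and 5 higher, beside 32.9% and 24.8%. The median was -0.11 centred, against 0.02 for all genes, and -0.34 without centring, against -0.20. On all 3 scales, 20 genes, psme4a among them, were called lower and 2, psmc4 and psmg2, higher; the other 9 higher calls of the centred scale did not hold on at least 1 of the other scales. By role, centred, 7 of 11 base genes, 4 of 9 lid genes and 4 of 5 activators or inhibitors were lower. The activators or inhibitors called include psme4a, whose call is no evidence. In the core 5 were lower and 7 higher of 18. The core's split turned with the scale: without centring 8 were lower and 0 higher, and with centring on genes of at least 20 FPKM 6 were lower and 3 higher. In the base 10 were then lower and 8, and in the lid 7 and 6. Without 1 library, the lower calls of psma2b and psmd11b were lost (any sf3b1 MO library, As2S2 replicate 1 or 3), as were those of psmb5 and psmc6, for which the libraries are given with each gene. Among the higher calls, psma6b was lost without sf3b1 MO replicate 1 or 3 or any As2S2 library, psmb4 without sf3b1 MO replicate 1 or 3 or As2S2 replicate 2 or 3, and psmd6 without replicate 2 of either group.

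**Figure D2:**
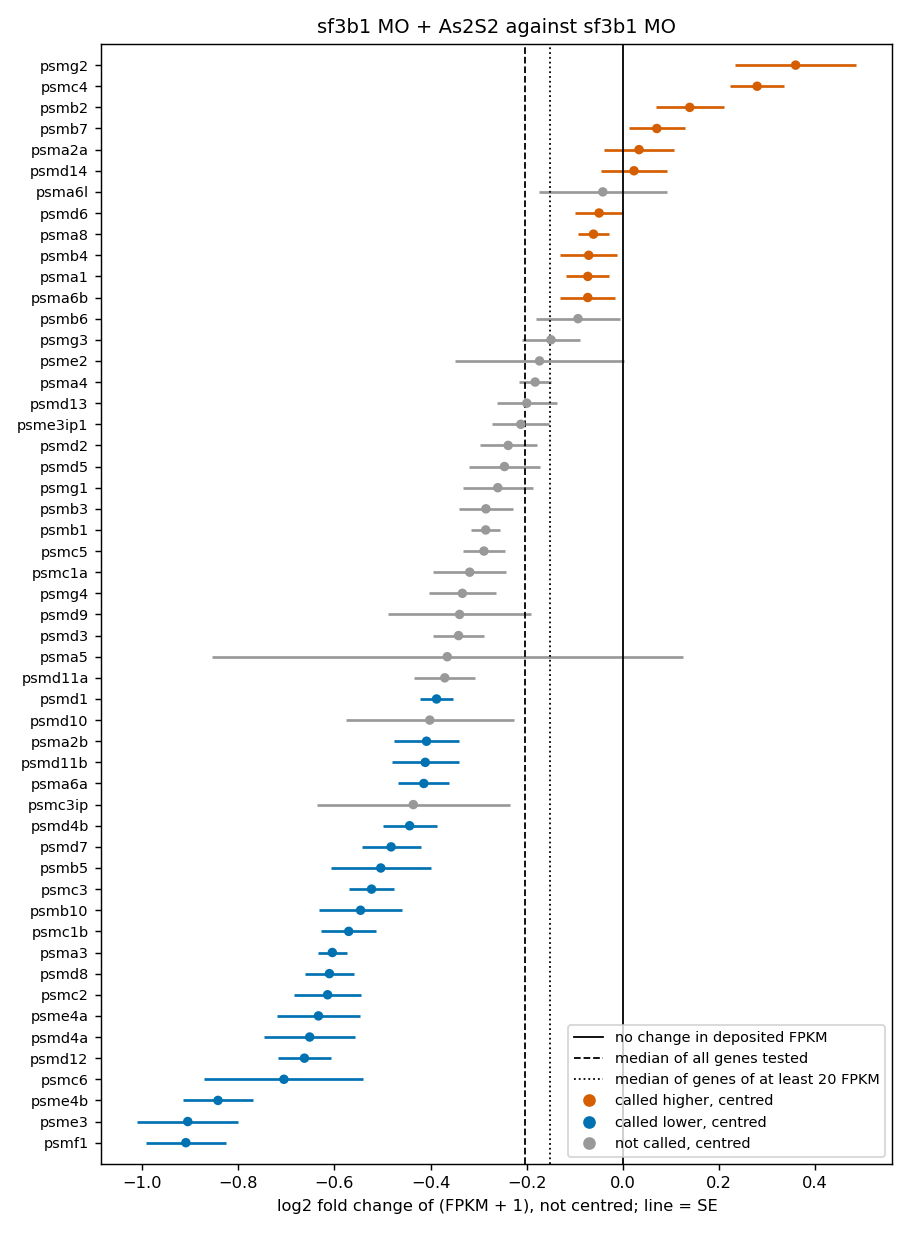
Log2 fold change of FPKM + 1 without centring, sf3b1 MO + As2S2 against sf3b1 MO (x axis), for the 52 genes. Horizontal lines give the SE of the centred fit. Vertical lines mark 0, the median of all genes (-0.20) and the median of genes of at least 20 FPKM (-0.15). Colours give the centred calls: psmc4 and psmg2 lie well right of 0, and psmf1, psme3 and psme4b lie farthest left.

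In sf3b1 MO + As2S2 against control MO, 27 of the 52 genes were called lower and 11 higher on the centred scale, beside 28.0% and 34.8% of all genes. Without centring, 40 were lower and 3 higher, beside 48.5% and 19.5%, and with centring on genes of at least 20 FPKM, 37 were lower and 4 higher, beside 40.7% and 24.0%. The median of the 52 genes was -0.22 centred, against 0.05 for all genes. Among the centred higher calls, psma1, psma8, psmb7 and psmg4 had lower deposited FPKM in every As2S2 library than in any control MO library. Without centring psma8 was called lower (-0.14, adjusted p = 0.0048, limma). For psma2a, psmb2 and psme3ip1 the libraries overlapped, and for psma6l, psmc4, psme2 and psmg2 all As2S2 libraries lay above. All 27 lower calls, psme4a included, held on the 3 scales, as did the higher calls of psmc4 and psmg2 and that of psma6l, which the minimum of 1 FPKM bears on. On the centred scale 9 of 11 base genes were lower, 6 of 9 lid genes and 7 of 18 core genes, with 6 core genes higher. Of 5 activators or inhibitors 4 were lower, psme4a among them, and psme2 was higher. The calls of psme4a and psme2 are no evidence, as given above. Without centring the core had 13 lower and 1 higher, and with centring on genes of at least 20 FPKM 12 lower and 1 higher. That 1 higher gene is psma6l, also among the 6 of the centred scale, and its call is no evidence. The lower call of psmd5 was lost without control MO replicate 1 or As2S2 replicate 2, that of psme3 without control MO replicate 2 or As2S2 replicate 1 or 2, and that of psma5 without any of 5 libraries. The higher call of psmb7 was lost without any control MO library or As2S2 replicate 2 or 3, and that of psmg4 without control MO replicate 1 or 2 or As2S2 replicate 2 or 3.

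**Figure D3:**
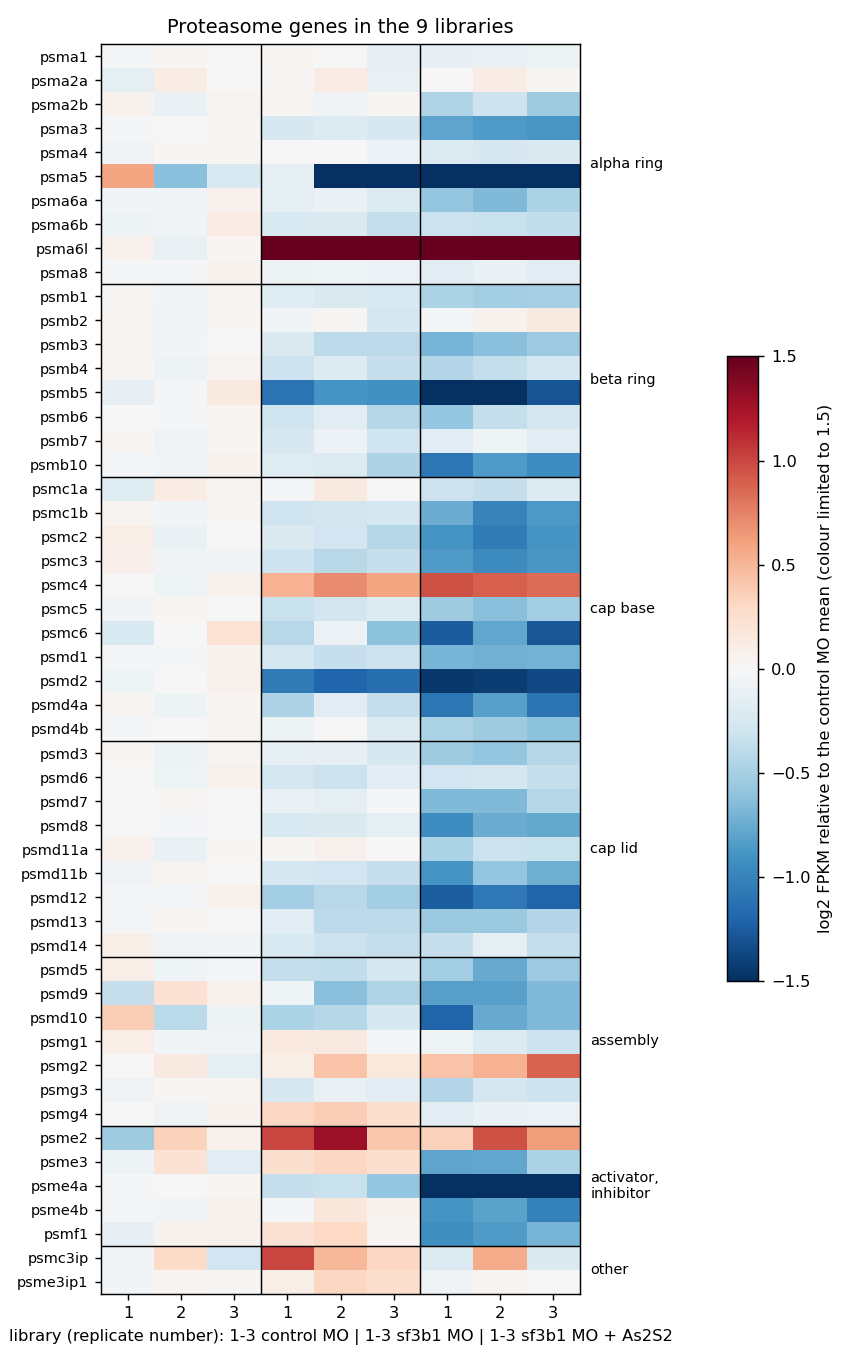
Log2 FPKM of each gene in the 9 libraries (columns) relative to its control MO mean, grouped by role (rows); blue is lower, red higher, and colour stops at 1.5. The 3 libraries of a group look alike for most genes; psma5 is the exception in control MO and sf3b1 MO.

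Of the 3 catalytic subunits, psmb5 had the largest fall. psmb5 measured 18.6, 19.98 and 22.2 FPKM in control MO, 9.42, 11.0 and 10.7 in sf3b1 MO and 6.64, 6.26 and 8.26 in sf3b1 MO + As2S2. The 3 groups did not overlap. Its log2 fold change was -0.93 (SE 0.10, adjusted p = 4.26e-06) in sf3b1 MO against control MO (edgeR), -0.28 (SE 0.10, adjusted p = 0.044) in sf3b1 MO + As2S2 against sf3b1 MO and -1.11 (SE 0.10, adjusted p = 1.25e-05) against control MO (limma). The call between the 2 sf3b1 MO groups was close to the threshold: it was lost without sf3b1 MO replicate 2 or 3 or sf3b1 MO + As2S2 replicate 1 or 2 (adjusted p = 0.113 to 0.14), and with a pseudocount of 0.1 (adjusted p = 0.0526).

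psmb6 had 69.7, 69.0 and 71.9 FPKM in control MO, 57.0, 62.7 and 52.1 in sf3b1 MO and 47.1, 54.8 and 59.2 in sf3b1 MO + As2S2. The caspase-like subunit was thus lower in every sf3b1 MO library than in any control MO library (log2 fold change -0.27, SE 0.06, adjusted p = 0.00231, edgeR), while the 2 sf3b1 MO groups overlapped (log2 fold change 0.13, SE 0.09, adjusted p = 0.221, limma). psmb7 came to 117, 111 and 117 FPKM in control MO, 97.7, 108 and 93.5 in sf3b1 MO and 102, 110.4 and 102 in sf3b1 MO + As2S2. This trypsin-like subunit gave -0.18 (SE 0.05, adjusted p = 0.0135) in sf3b1 MO, a call that was lost in limma on FPKM and without control MO replicate 1 or 3 or sf3b1 MO replicate 1 or 3. With As2S2 it was called higher than in sf3b1 MO, at 0.30 (SE 0.06, adjusted p = 0.00198, limma, centred). The deposited FPKM of those 2 groups overlapped, and without centring the value was 0.07 (adjusted p = 0.303). Against control MO its sign turned with the scale: 0.16 centred, -0.13 without centring and -0.03 centred on genes of at least 20 FPKM.

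psmb10 replaces psmb7 in the immunoproteasome, the form of the core that immune cells make. psmb10 stood at 6.59, 6.47 and 6.92 FPKM in control MO, 5.86, 5.79 and 4.82 in sf3b1 MO and 3.14, 3.70 and 3.48 in sf3b1 MO + As2S2. All As2S2 libraries lay below all others. Its centred log2 fold change was -0.32 (SE 0.09, adjusted p = 0.0109) against sf3b1 MO and -0.49 (SE 0.09, adjusted p = 0.000825) against control MO (limma); between sf3b1 MO and control MO edgeR gave -0.24 (SE 0.14, adjusted p = 0.173), which did not pass. Apart from psmb10, the naming rule found no beta subunit gene of the immunoproteasome in the table.

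The non-catalytic beta subunits were also uneven. In the order control MO, sf3b1 MO, sf3b1 MO + As2S2, psmb1 went from 111 ± 2.83 to 96.1 ± 1.31 and 78.7 ± 1.54 FPKM (SD, n = 3), psmb3 from 73.6 ± 2.07 to 58.6 ± 4.10 and 47.9 ± 2.53 and psmb4 from 94.6 ± 4.13 to 77.8 ± 4.36 and 74.1 ± 4.58. All 3 fell in sf3b1 MO (edgeR, -0.18 to -0.30), with psmb3 lowest. With As2S2 against sf3b1 MO, psmb1 and psmb3 were not called on the centred scale (both -0.06, adjusted p = 0.1226 and 0.3985, limma). Without centring both were called lower (-0.29 and -0.28). psmb4 was called higher on the centred scale (0.15, adjusted p = 0.0489, limma) and was not called without centring (-0.07). psmb2 measured 96.3, 90.3 and 94.8 FPKM in control MO, 91.3, 95.3 and 78.8 in sf3b1 MO and 91.7, 97.2 and 103 in sf3b1 MO + As2S2. For psmb2 the 3 groups overlapped in FPKM. limma called it higher with As2S2 on the centred scale (log2 fold change 0.36, SE 0.07, adjusted p = 0.00185 against sf3b1 MO) but not without centring (0.14, adjusted p = 0.112).

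**Figure D4:**
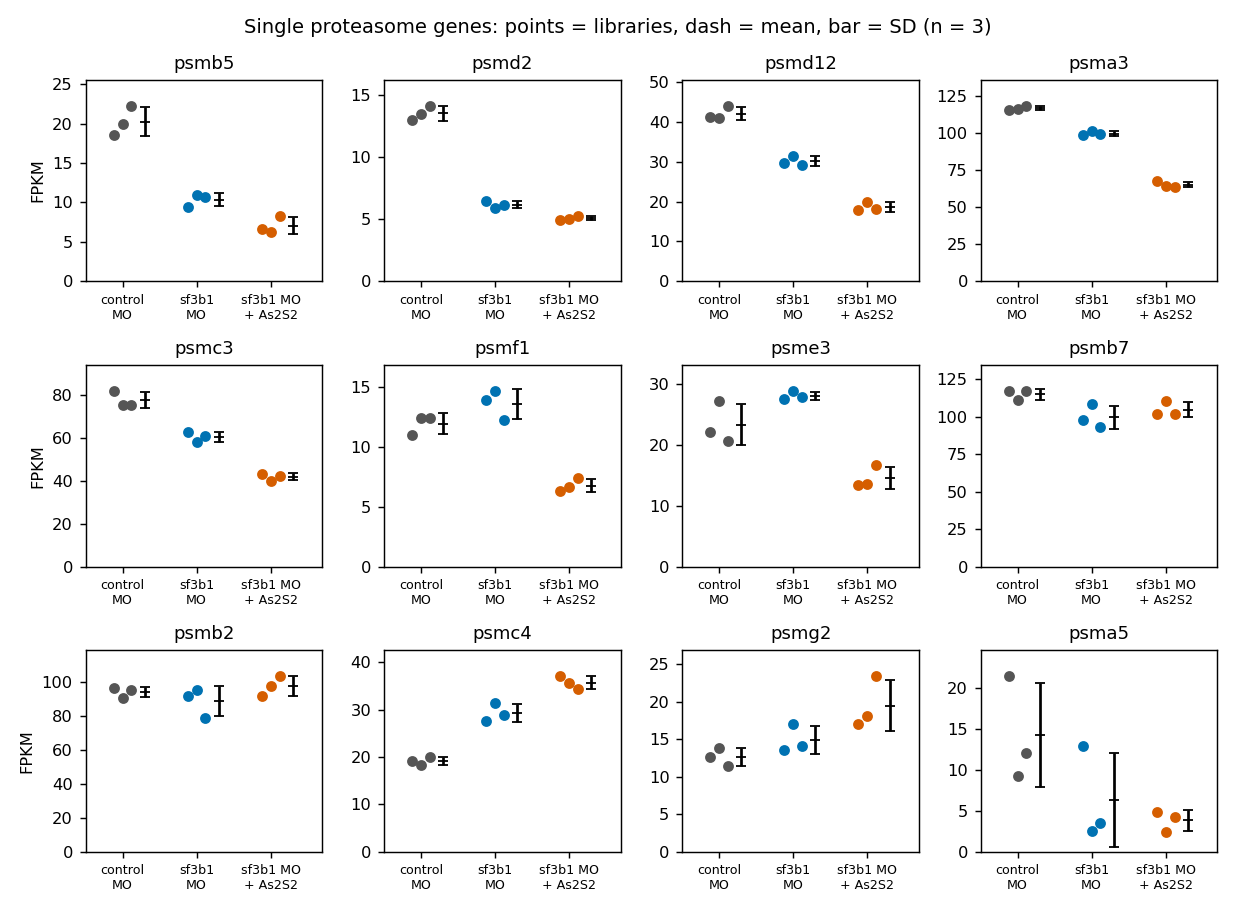
FPKM per library (y axis, from 0) of 12 proteasome genes in the 3 groups; points are libraries, the dash is the mean and the bar the SD (n = 3). psmb5, psmd2 and psmd12 step down, psmc4 steps up, the psmb2 libraries of the 3 groups overlap, and psma5 is widely scattered.

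In the alpha ring, psma3 was the only gene called lower in all 3 comparisons. psma3 had 115, 116 and 118 FPKM in control MO, 98.6, 101 and 99.1 in sf3b1 MO and 67.4, 64.5 and 63.8 in sf3b1 MO + As2S2. No library of a group overlapped with another group, and its log2 fold change was -0.20 (SE 0.04, adjusted p = 0.000691) in sf3b1 MO (edgeR) and -0.38 (SE 0.03, adjusted p = 5.31e-06) with As2S2 against sf3b1 MO (limma). Of the other alpha genes, psma1, psma4 and psma8 had log2 fold changes of 0.00, -0.01 and -0.05 in sf3b1 MO, none of them called. With As2S2 against sf3b1 MO, psma1 and psma8 were called higher on the centred scale (0.15 and 0.16) but had values of -0.07 and -0.06 without centring. The deposited FPKM of psma8 were lower in every As2S2 library than in any sf3b1 MO library. psma2a came to 25.6, 30.6 and 28.4 FPKM in control MO, 28.4, 30.8 and 26.2 in sf3b1 MO and 28.4, 30.4 and 28.5 in sf3b1 MO + As2S2. The psma2a libraries of the 3 groups overlapped. Its centred log2 fold change with As2S2 was 0.26 (SE 0.07, adjusted p = 0.0128) against sf3b1 MO and 0.34 (SE 0.07, adjusted p = 0.0026) against control MO (limma), called higher, and without centring the values were 0.03 and 0.05, not called.

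psma5 had the lowest fold changes of the alpha ring against control MO and also a wide scatter. psma5 stood at 21.5, 9.21 and 12.1 FPKM in control MO, 12.9, 2.51 and 3.57 in sf3b1 MO and 4.89, 2.41 and 4.19 in sf3b1 MO + As2S2. Control MO replicate 1 was above 20 FPKM and sf3b1 MO replicate 1 lay above 2 of the 3 control MO libraries. In each group replicate 1 was the highest and replicate 2 the lowest. edgeR gave -1.15 (SE 0.80, adjusted p = 0.307) in sf3b1 MO, and of the libraries left out in turn only sf3b1 MO replicate 1 let it pass (-2.18, adjusted p = 0.0431). limma called the As2S2 libraries lower than control MO (log2 fold change -1.32, SE 0.49, adjusted p = 0.0394), a call that was lost without control MO replicate 1 or 3 or any 1 of the As2S2 libraries (adjusted p = 0.051 to 0.134).

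psma6l, a psma6-like gene beside psma6a and psma6b, was the only alpha gene that rose in sf3b1 MO. psma6l measured 0.384, 0.339 and 0.375 FPKM in control MO, 1.96, 2.38 and 1.46 in sf3b1 MO and 1.81, 2.22 and 1.49 in sf3b1 MO + As2S2. It was above every control library in all 6 sf3b1 MO and As2S2 libraries, at 2.37 (SE 0.29, adjusted p = 1.84e-05, edgeR), but its level stayed under that of its relatives psma6a (48.3 FPKM in control MO) and psma6b (31.5 FPKM). Since psma6l reached the FPKM minimum in no control MO library, its limma call against control MO is no evidence. That call is counted above, and its values are not given. How reads are shared between these near relatives is not known.

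The base of the cap held psmd2, with the largest fall among the genes called in sf3b1 MO, and psmc4, the only one of the 52 genes called higher in all 3 comparisons. psmd2, the scaffold on which shuttle proteins dock, had 13.0, 13.5 and 14.1 FPKM in control MO, 6.48, 5.95 and 6.16 in sf3b1 MO and 4.95, 5.04 and 5.30 in sf3b1 MO + As2S2. Between control MO and sf3b1 MO its log2 fold change was -1.10 (SE 0.07, adjusted p = 2.78e-08, edgeR), and the groups did not overlap. With As2S2 against sf3b1 MO the centred value was -0.01 (SE 0.06, adjusted p = 0.869, limma); without centring it was -0.24 (adjusted p = 0.0073). A second row of the table carries the same name in capitals, PSMD2, and was outside the naming rule. It had 45.6, 47.1 and 50.6 FPKM in control MO, 32.7, 34.4 and 31.6 in sf3b1 MO and 26.7, 26.8 and 27.2 with As2S2, and fell in sf3b1 MO by edgeR (-0.51, SE 0.05, adjusted p = 1.15e-06). How reads were divided between the 2 rows is not known. Their sum was 61.3 ± 3.12, 39.1 ± 1.34 and 32.0 ± 0.43 FPKM (SD, n = 3) in the 3 groups.

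psmc4, an ATPase of the ring, was higher at each step. psmc4 had 19.1, 18.4 and 19.98 FPKM in control MO, 27.5, 31.4 and 28.9 in sf3b1 MO and 37.0, 35.7 and 34.4 in sf3b1 MO + As2S2. No library of a group reached the next group. Its log2 fold change was 0.64 (SE 0.07, adjusted p = 2.95e-06) in sf3b1 MO (edgeR), 0.51 (SE 0.06, adjusted p = 6.01e-05) with As2S2 against sf3b1 MO and 1.16 (SE 0.06, adjusted p = 1.47e-07) against control MO (limma), and it was called higher on all 3 scales. None of the other ATPase genes of the ring was called higher in any comparison. psmc3 went from 77.5 ± 3.71 to 60.6 ± 2.24 and 41.9 ± 1.63 FPKM (SD, n = 3), with -0.34 (SE 0.05, adjusted p = 5.79e-05) in sf3b1 MO (edgeR) and -0.30 (SE 0.05, adjusted p = 0.000583) with As2S2 against sf3b1 MO (limma). psmc1b, psmc2 and psmc5 fell in sf3b1 MO by edgeR (-0.25, -0.28 and -0.24), and psmc1b and psmc2 fell again with As2S2 (-0.34 and -0.39, limma).

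psmc6 was more variable. psmc6 came to 38.4, 44.6 and 51.8 FPKM in control MO, 33.8, 42.2 and 29.4 in sf3b1 MO and 19.0, 26.1 and 18.4 in sf3b1 MO + As2S2. limma called it lower with As2S2 against sf3b1 MO (log2 fold change -0.48, SE 0.17, adjusted p = 0.0325), but the call was lost without sf3b1 MO replicate 1 or 2 or As2S2 replicate 1 or 3 (adjusted p = 0.0600 to 0.113). Against control MO the fall was -0.76 (SE 0.17, adjusted p = 0.00293). Of the other base genes, psmd1, a large scaffold beside psmd2, went from 67.4 ± 2.18 to 54.3 ± 1.52 and 41.2 ± 0.40 FPKM (SD, n = 3), and the ubiquitin receptor psmd4a from 40.0 ± 1.74 to 32.0 ± 3.39 and 20.01 ± 2.37. Both fell in sf3b1 MO (edgeR, -0.28 and -0.29) and again with As2S2 (limma, -0.16 and -0.43).

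All 9 lid genes had a lower mean FPKM with As2S2 than in control MO. Of all 18013 genes tested, 12123 had a negative log2 fold change without centring, with a median of -0.25. On the centred scale limma called 6 of the 9 lid genes lower, beside 28.0% of all genes. psmd12 had the lowest fold changes. psmd12 stood at 41.1, 41.0 and 43.9 FPKM in control MO, 29.6, 31.5 and 29.2 in sf3b1 MO and 17.8, 19.99 and 18.2 in sf3b1 MO + As2S2. The groups were separate at each step, with -0.45 (SE 0.05, adjusted p = 4.12e-06) in sf3b1 MO (edgeR), -0.44 (SE 0.06, adjusted p = 0.000131) with As2S2 against sf3b1 MO and -0.84 (SE 0.06, adjusted p = 1.17e-06) against control MO (limma). psmd8 was lower in both comparisons (-0.16 by edgeR, -0.38 by limma), while psmd7 was not called in sf3b1 MO (-0.06, adjusted p = 0.264) and fell with As2S2 (-0.26, adjusted p = 0.00591). psmd14 measured 51.7, 47.2 and 47.4 FPKM in control MO, 41.7, 39.1 and 38.0 in sf3b1 MO and 38.5, 44.4 and 38.1 in sf3b1 MO + As2S2. psmd14, the deubiquitinase that frees ubiquitin from the substrate, thus fell in sf3b1 MO (log2 fold change -0.27, SE 0.06, adjusted p = 0.00234, edgeR). With As2S2 against sf3b1 MO its centred value was 0.25 (SE 0.07, adjusted p = 0.0114, limma), but the FPKM of those libraries overlapped and the value without centring was 0.02 (adjusted p = 0.779).

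Of the 7 assembly chaperones, edgeR called 1 lower and 1 higher in sf3b1 MO, each 14.3%, beside 25.9% and 25.2% of all genes. With As2S2 against sf3b1 MO limma called 0 lower and 1 higher on the centred scale, 4 lower and 1 higher without centring, and 1 lower and 1 higher with centring on genes of at least 20 FPKM. Of all genes, 27.4% were lower and 30.2% higher, 44.5% and 17.3%, and 32.9% and 24.8%, in the order of these scales. Against control MO limma called 1 lower and 2 higher, 4 lower and 1 higher, and 4 lower and 1 higher in the same order. The shares of all genes were then 28.0% and 34.8%, 48.5% and 19.5%, and 40.7% and 24.0%. psmg1 and psmg2 form a pair that lines up the alpha ring, and so do psmg3 and psmg4. psmg2 had 12.7, 13.8 and 11.4 FPKM in control MO, 13.6, 17.0 and 14.1 in sf3b1 MO and 17.0, 18.04 and 23.4 in sf3b1 MO + As2S2. All As2S2 libraries lay above those of control MO. Its centred log2 fold change was 0.59 (SE 0.13, adjusted p = 0.00335) against sf3b1 MO and 0.87 (SE 0.13, adjusted p = 0.000239) against control MO (limma), called on all 3 scales. In sf3b1 MO alone the edgeR value was 0.27 (SE 0.12, adjusted p = 0.071), which did not pass. psmg1 came to 20.8, 18.9 and 18.7 FPKM in control MO, 21.6, 21.3 and 19.1 in sf3b1 MO and 18.6, 16.9 and 15.8 in sf3b1 MO + As2S2. This partner was not called in sf3b1 MO (log2 fold change 0.11, SE 0.09, adjusted p = 0.293, edgeR). With As2S2 against sf3b1 MO it was not called on the centred scale (log2 fold change -0.03, SE 0.07, adjusted p = 0.711, limma) and was lower without centring (-0.26, adjusted p = 0.0121).

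psmg3 stood at 19.3, 20.2 and 20.5 FPKM in control MO, 16.9, 18.5 and 17.8 in sf3b1 MO and 14.8, 16.8 and 16.2 in sf3b1 MO + As2S2. psmg3 was not called in sf3b1 MO (log2 fold change -0.14, SE 0.09, adjusted p = 0.218, edgeR) and its sign with As2S2 against sf3b1 MO turned with the scale, from 0.08 centred to -0.15 without centring. psmg4 measured 3.50, 3.39 and 3.65 FPKM in control MO, 4.34, 4.53 and 4.15 in sf3b1 MO and 3.13, 3.28 and 3.30 in sf3b1 MO + As2S2. Every sf3b1 MO library of psmg4 was above every other library, at 0.33 (SE 0.11, adjusted p = 0.0272, edgeR). That call was lost without any 1 control MO library and without sf3b1 MO replicate 1 or 2 (adjusted p = 0.0512 to 0.0778). Of the chaperones of the base, psmd5 fell in sf3b1 MO (log2 fold change -0.30, SE 0.09, adjusted p = 0.0157, edgeR), a call that was lost without control MO replicate 1 (adjusted p = 0.0807), while psmd9 (log2 fold change -0.34, SE 0.17, adjusted p = 0.101) and psmd10 (log2 fold change -0.35, SE 0.18, adjusted p = 0.129) did not pass.

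The inhibitor psmf1 and the activators psme3 and psme4b had the lowest log2 fold changes of the 52 genes with As2S2 against sf3b1 MO. These proteins dock on the core in place of the cap, or, for psmf1, inhibit the core in vitro. The fold changes are those of FPKM + 1, which understate low genes. psme4a, with a mean of 1.40 FPKM in sf3b1 MO and 0.546 with As2S2, fell by a larger factor in FPKM than psmf1, psme3 and psme4b. psmf1 had 11.0, 12.4 and 12.5 FPKM in control MO, 13.9, 14.7 and 12.2 in sf3b1 MO and 6.32, 6.62 and 7.38 in sf3b1 MO + As2S2. The sf3b1 MO and control MO libraries overlapped (log2 fold change 0.22, SE 0.10, adjusted p = 0.0943, edgeR, not called), and all As2S2 libraries were below both, at -0.68 (SE 0.08, adjusted p = 9.8e-05) against sf3b1 MO (limma). psme3 came to 22.1, 27.2 and 20.7 FPKM in control MO, 27.7, 28.9 and 27.9 in sf3b1 MO and 13.5, 13.6 and 16.8 in sf3b1 MO + As2S2. The nuclear activator psme3 was called higher in sf3b1 MO (log2 fold change 0.29, SE 0.09, adjusted p = 0.0197, edgeR), which was lost without control MO replicate 1 or 3 or sf3b1 MO replicate 2 or 3 (adjusted p = 0.0661 to 0.0749). With As2S2 it fell against sf3b1 MO, at -0.68 (SE 0.10, adjusted p = 0.000458, limma), and all As2S2 libraries were below all others.

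psme4a and psme4b encode the large single-chain activator. psme4b stood at 9.16, 9.01 and 9.70 FPKM in control MO, 9.14, 10.47 and 9.60 in sf3b1 MO and 5.05, 5.32 and 4.59 in sf3b1 MO + As2S2. It was not called in sf3b1 MO (log2 fold change 0.07, SE 0.05, adjusted p = 0.294, edgeR) and fell with As2S2 (log2 fold change -0.62, SE 0.07, adjusted p = 8.32e-05, limma). psme4a measured 1.83, 1.87 and 1.89 FPKM in control MO, 1.46, 1.48 and 1.24 in sf3b1 MO and 0.425, 0.615 and 0.598 in sf3b1 MO + As2S2. This copy was lower already in sf3b1 MO (log2 fold change -0.38, SE 0.11, adjusted p = 0.00993, edgeR; -0.19, adjusted p = 0.0947, by limma on FPKM) and its 3 As2S2 libraries lay below all others. None of them reached the FPKM minimum. The limma calls of psme4a in both As2S2 comparisons are counted above but are no evidence, and their values are not given. psme2 had 0.779, 1.43 and 1.18 FPKM in control MO, 2.27, 2.74 and 1.49 in sf3b1 MO and 1.44, 2.18 and 1.75 in sf3b1 MO + As2S2. psme2, a subunit of the interferon-inducible activator, was called higher in sf3b1 MO (log2 fold change 0.96, SE 0.28, adjusted p = 0.0105, edgeR), but not without sf3b1 MO replicate 2 (0.76, adjusted p = 0.059). At these levels 1 of the 3 control libraries lay under 1 FPKM, and the summed white blood cell genes were also highest in sf3b1 MO, although as many of them were called lower as higher; their part in the result was not tested.

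Of the 2 genes named after a subunit, psmc3ip, which acts in meiotic recombination, had 2.92, 3.64 and 2.47 FPKM in control MO, 6.01, 4.26 and 3.72 in sf3b1 MO and 2.61, 4.42 and 2.598 in sf3b1 MO + As2S2. edgeR called it higher in sf3b1 MO (log2 fold change 0.65, SE 0.23, adjusted p = 0.029), a call that was lost without control MO replicate 1 or 3 or sf3b1 MO replicate 1 (adjusted p = 0.073 to 0.153). psme3ip1, a binding partner of psme3, went from 29.01 ± 0.72 to 33.8 ± 2.62 and 28.98 ± 1.03 FPKM (SD, n = 3). It was called higher in sf3b1 MO by edgeR (log2 fold change 0.25, SE 0.07, adjusted p = 0.0108), which was lost without sf3b1 MO replicate 2.

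A view that needs no scaling between libraries is the balance of parts within each library, chosen after the values were seen and given without a test. Summed FPKM of the core genes went from 1085 ± 24.6 in control MO to 953 ± 39.8 in sf3b1 MO and 855 ± 18.02 in sf3b1 MO + As2S2 (SD, n = 3). Those of the cap went from 1002 ± 19.4 to 850.2 ± 13.3 and 658 ± 6.17. These sums hold only genes of the naming rule, so that the cap leaves out the PSMD2 row, sem1 and adrm1. The cap held 0.919 to 0.929 of the core's sum in control MO, 0.875 to 0.920 in sf3b1 MO and 0.761 to 0.779 in sf3b1 MO + As2S2. The As2S2 libraries were thus all below the others, while sf3b1 MO replicate 3 reached the control range. The base went from 0.473 to 0.456 and 0.379 of the core's sum, and the lid from 0.451 to 0.437 and 0.391. The small lid difference between sf3b1 MO and control MO, -0.0134, depended on single libraries: it was -0.0044 without sf3b1 MO replicate 2 and -0.0221 without sf3b1 MO replicate 3. With As2S2 against control MO the cap ratio differed by -0.154, and by -0.158 to -0.149 without 1 library.

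Paralogs gave a second such view: 6 subunits have 2 copies, and psmb10 was set beside psmb7. Across the 7 pairs and 3 comparisons, 21 exact permutation tests were made, two-sided, for which 3 against 3 libraries cannot go below p = 0.1 (adjusted p = 0.131), so that none could pass. psma2a made up 65.3% ± 3.23 of its pair in control MO, 65.4% ± 2.47 in sf3b1 MO and 72.4% ± 0.85 with As2S2 (SD, n = 3), and the As2S2 libraries did not overlap with the rest. psma6a went from 60.5% ± 0.81 to 62.5% ± 0.49 and 56.6% ± 1.96. psmc1a gained share at each step without overlap, from 36.2% ± 2.93 to 41.5% ± 1.44 and 45.9% ± 2.30. psmd4a went the other way, from 47.4% ± 1.23 to 43.3% ± 2.19 and 39.6% ± 2.73, with an overlap between the sf3b1 MO groups. psmd11a went from 32.2% ± 1.98 to 37.3% ± 0.64 and stayed at 37.8% ± 1.42. psme4a went from 16.7% ± 0.43 to 12.6% ± 1.18 and 9.88% ± 1.92. The share of psmb10 in psmb10 plus psmb7 was 5.48% ± 0.13, 5.21% ± 0.40 and 3.18% ± 0.16. How the authors' counting divided reads between near copies is not known.

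**Figure D5:**
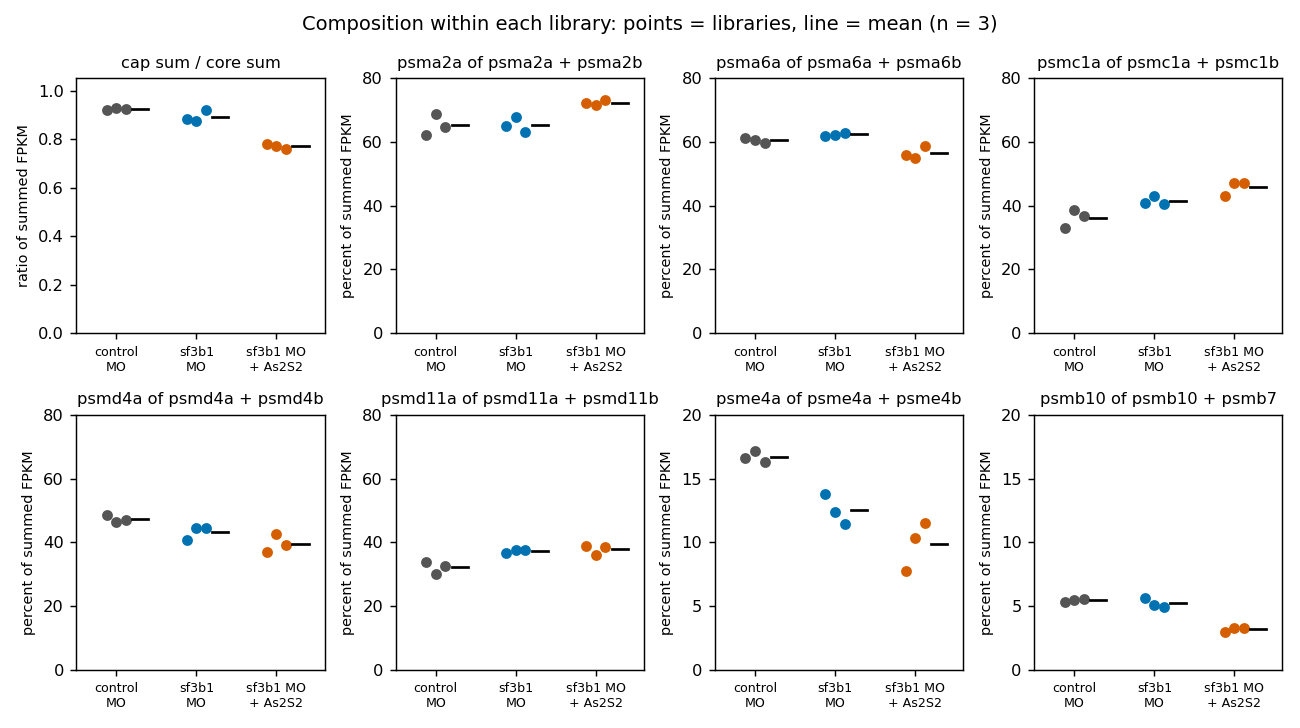
Summed FPKM of the cap per summed FPKM of the core, and the share of the first gene of each pair in percent, per library (points) with the group mean (line, n = 3). The cap-to-core ratio is lowest in the 3 As2S2 libraries, and psmc1a gains share at each step.

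The other genes of the ubiquitin system were called lower about as often as all genes. Of 114 listed symbols 99 were in the table, a list drawn up with results of these data known. In sf3b1 MO against control MO edgeR called 26 of the 99 lower and 23 higher (26.3% and 23.2%, beside 25.9% and 25.2% of all genes), with a median of 0.00. In sf3b1 MO + As2S2 against sf3b1 MO limma called 26 of the 96 tested lower and 37 higher on the centred scale (27.1% and 38.5%, beside 27.4% and 30.2%), and 44 lower and 21 higher without centring (45.8% and 21.9%, beside 44.5% and 17.3%). Among these are assembly and cap partners that the naming rule misses. pomp came to 50.8, 50.4 and 48.0 FPKM in control MO, 50.2, 42.8 and 40.2 in sf3b1 MO and 29.4, 30.7 and 34.7 in sf3b1 MO + As2S2. pomp, which matures the core, was not called in sf3b1 MO (log2 fold change -0.14, SE 0.08, adjusted p = 0.178, edgeR) and was lower with As2S2 (log2 fold change -0.25, SE 0.08, adjusted p = 0.029, limma). sem1 stood at 33.1, 33.8 and 35.0 FPKM in control MO, 44.2, 45.1 and 46.0 in sf3b1 MO and 41.2, 39.3 and 38.4 in sf3b1 MO + As2S2. The small lid subunit sem1 thus rose in sf3b1 MO (log2 fold change 0.44, SE 0.05, adjusted p = 1.09e-05, edgeR). adrm1 measured 52.6, 49.2 and 54.3 FPKM in control MO, 50.3, 48.8 and 48.2 in sf3b1 MO and 43.8, 40.5 and 32.8 in sf3b1 MO + As2S2. adrm1, a ubiquitin receptor of the base, was not called in sf3b1 MO by edgeR. On the centred scale it was not called in either As2S2 comparison (log2 fold change -0.11, SE 0.09, adjusted p = 0.337 against sf3b1 MO, limma). Its deposited FPKM were lower in every As2S2 library than in any other library. The limma values of single listed genes are given on the centred scale only, and such calls can turn with the scale.

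Both deubiquitinases that bind the cap were lower. uchl5 had 36.0, 35.3 and 34.6 FPKM in control MO, 28.4, 29.1 and 25.9 in sf3b1 MO and 9.35, 10.7 and 10.8 in sf3b1 MO + As2S2. uchl5 gave -0.32 (SE 0.06, adjusted p = 0.000883) in sf3b1 MO (edgeR) and -1.13 (SE 0.06, adjusted p = 7.11e-07) with As2S2 against sf3b1 MO (limma). usp14 came to 29.1, 30.2 and 32.1 FPKM in control MO, 23.9, 26.5 and 26.9 in sf3b1 MO and 20.2, 15.5 and 17.0 in sf3b1 MO + As2S2. usp14 gave -0.21 (SE 0.06, adjusted p = 0.00971) and -0.31 (SE 0.09, adjusted p = 0.0129) by the same tests. bag3 stood at 6.34, 6.49 and 5.88 FPKM in control MO, 3.15, 3.13 and 2.29 in sf3b1 MO and 18.3, 20.6 and 18.5 in sf3b1 MO + As2S2. bag3, a co-chaperone of HSP70, fell in sf3b1 MO (log2 fold change -1.10, SE 0.14, adjusted p = 1.88e-05, edgeR) and rose with As2S2 against sf3b1 MO (log2 fold change 2.62, SE 0.10, adjusted p = 5.27e-08, limma). ubb measured 37.6, 59.6 and 60.1 FPKM in control MO, 24.6, 24.2 and 21.8 in sf3b1 MO and 126, 114 and 118 in sf3b1 MO + As2S2. The polyubiquitin gene ubb gave -0.63 (SE 0.06, adjusted p = 1.35e-06) in sf3b1 MO (edgeR) and 2.52 (SE 0.15, adjusted p = 8.77e-07) with As2S2 against sf3b1 MO (limma). Its counts and FPKM disagreed in size: the log2 ratio of sf3b1 MO to control MO was -0.63 from counts and -1.13 from FPKM, on which the As2S2 value rests. A difference above 0.2 was found for 3 of the 99 listed genes, ubb, rnf4 and ube2l3b. zfand2a had 17.6, 17.3 and 20.2 FPKM in control MO, 28.1, 30 and 26.0 in sf3b1 MO and 37.3, 39.2 and 39.1 in sf3b1 MO + As2S2. zfand2a, which in mammals encodes an arsenite-inducible partner of the proteasome, rose in sf3b1 MO (log2 fold change 0.65, SE 0.08, adjusted p = 1.22e-05, edgeR) and again with As2S2 (log2 fold change 0.67, SE 0.07, adjusted p = 3.14e-05, limma).

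The 6 smallest adjusted p-values of the list for As2S2 against sf3b1 MO belonged to bag3, uchl5, ubb, mdm2, cul4b and zfand5a. mdm2 came to 4.74, 5.57 and 5.14 FPKM in control MO, 5.47, 4.82 and 6.43 in sf3b1 MO and 17.3, 13.1 and 14.5 in sf3b1 MO + As2S2. mdm2, the ubiquitin ligase of p53, gave 1.51 (SE 0.11, adjusted p = 4.68e-06, limma). cul4b stood at 25.9, 25.6 and 25.2 FPKM in control MO, 29.3, 27.8 and 28.4 in sf3b1 MO and 38.0, 36.8 and 36.7 in sf3b1 MO + As2S2. The cullin scaffold cul4b gave 0.60 (SE 0.04, adjusted p = 1.03e-06). zfand5a measured 31.4, 30.8 and 32.0 FPKM in control MO, 31.3, 29.7 and 27.9 in sf3b1 MO and 40.0, 37.9 and 38.7 in sf3b1 MO + As2S2. zfand5a gave 0.61 (SE 0.05, adjusted p = 4.14e-06). The fish copies of the regulator NFE2L1 were low. nfe2l1b had 4.01, 3.98 and 3.65 FPKM in control MO, 2.61, 2.77 and 2.66 in sf3b1 MO and 1.68, 1.69 and 2.04 in sf3b1 MO + As2S2. nfe2l1b fell in sf3b1 MO (log2 fold change -0.50, SE 0.09, adjusted p = 0.000657, edgeR). With As2S2 against sf3b1 MO it was not called on the centred scale (log2 fold change -0.17, SE 0.08, adjusted p = 0.108, limma). Its deposited FPKM were lower in every As2S2 library than in any sf3b1 MO library, and the other scales are not given for it. nfe2l1a stayed under 1 FPKM in all 9 libraries, was not called in sf3b1 MO (log2 fold change -0.34, SE 0.26, adjusted p = 0.288, edgeR) and did not reach the minimum for the FPKM test.

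The cytosolic chaperonin, another complex of many subunits, was set beside the proteasome. Its 8 genes summed to 1190 to 1218 FPKM in control MO, 1191 to 1279 in sf3b1 MO and 1732 to 1761 in sf3b1 MO + As2S2. edgeR called 4 of the 8 higher and 1 lower in sf3b1 MO, beside 25.2% and 25.9% of all genes. limma called all 8 higher with As2S2 against sf3b1 MO on each of the 3 scales, beside 30.2% of all genes centred, 17.3% without centring and 24.8% with centring on genes of at least 20 FPKM, with a centred median of 0.74 beside -0.11 for the 52 proteasome genes.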

How the data were processed

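The titles of the RNA sequencing samples define the groups. The tools named per the submitters' processing notes are fastp 0.22.0 and DESeq2, and the assembly is GRCz11. They name no aligner or counter, both not given in the sources used here. A single table held every value. Whole-number counts were deposited by the authors for control MO and sf3b1 MO, per the file headers under wt and ko. The header ko was read as sf3b1 MO, since the submitters' design text calls the model a knockout. The header wt was read as the group without the sf3b1 morpholino. Within the groups so read, each library's counts deviated from the group mean as the FPKM of the same number did (Spearman correlation across 13430 genes 0.950 to 0.955). With the other libraries of the same group the correlation was at most -0.395, which deviations from a shared mean tend to make negative. Libraries of the other group were not compared. FPKM were deposited by the authors for all 9 libraries. The authors' deposited mean column is on a log2 scale and equals the mean of log2(FPKM + 1) for 20712 of 20723 genes, and for all 52 proteasome genes, within 0.001. No per-sample column was left unused.

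Counts of 20723 genes were tested with edgeR 4.0.16 (quasi-likelihood, TMM; its low-count filter removed 0 genes). FPKM of 18013 genes with at least 1 FPKM in 3 libraries were tested with limma 3.58.1 on log2(FPKM + 1), each library centred on its median gene, with R 4.3.3. p-values were adjusted by the Benjamini-Hochberg method over all genes tested, with a threshold of 0.05. Fold changes on log2(FPKM + 1) understate low genes. The SE given with edgeR was derived from its test, as the absolute log2 fold change divided by the square root of the F statistic. Both procedures were tested on simulated data. DESeq2 1.42.0, other scalings, filters and pseudocounts, a replicate block and each library left out were tried as alternatives. Same-numbered libraries of different groups did not deviate together over all genes tested (correlations -0.072 to 0.042). With 3 libraries per group this cannot exclude that the numbers pair the samples, and the labels do not say.

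Values per library are given for the 4 largest rises and falls among the genes called in each comparison whose mean over both groups reached 4 CPM or FPKM, every catalytic subunit, every psmg, psmf and psme gene, 7 listed partners and the 6 other ubiquitin genes with the smallest adjusted p for As2S2 against sf3b1 MO. psma3, psma6l and psmd14 were added after their values were seen, as were the genes given by their mean and SD. The members, lists and tests were chosen with earlier results of these data known. No coordinates are given, since the gene table at hand is of another assembly.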

Additional observations from a re-analysis of the deposited data

How the results depend on the processing

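Between sf3b1 MO and control MO, the counts of 24 lower and 7 higher genes were the same with DESeq2 and with its size factors in edgeR. They were 21 and 9 by limma on FPKM. Leaving out the low-count filter could change nothing, since it removed 0 genes. Without centring, the genes called higher numbered 2 against sf3b1 MO and 3 against control MO for the As2S2 libraries, in place of 11 and 11, and the genes called lower against sf3b1 MO numbered 34 in place of 20. Centring on genes of at least 20 FPKM, chosen after seeing the data, gave 5 and 4 higher. Leaving out 1 library gave 3 to 7 higher and 21 to 25 lower for sf3b1 MO against control MO, 8 to 11 and 16 to 19 for sf3b1 MO + As2S2 against sf3b1 MO, and 9 to 11 and 24 to 27 against control MO. Fewer libraries were then tested. A replicate block gave 7 higher and 25 lower, 9 and 19, and 10 and 27 for the 3 comparisons. With it psma5 passed in sf3b1 MO (-1.40, adjusted p = 0.0137, edgeR). Whether the numbers pair the samples is not known. Signs turned, by the scale alone, without centring in sf3b1 MO + As2S2 against sf3b1 MO for psma1 (-0.073), psma4 (-0.18), psma6b (-0.073), psma8 (-0.061), psmb4 (-0.071), psmd13 (-0.20), psmd6 (-0.049), psme3ip1 (-0.21) and psmg3 (-0.15). Against control MO they turned for psma1 (-0.10), psma4 (-0.22), psma8 (-0.14), psmb7 (-0.13), psmc1a (-0.27), psmd14 (-0.27), psme3ip1 (-0.0019) and psmg4 (-0.092), and with centring on genes of at least 20 FPKM for psma4 (-0.11), psma8 (-0.034) and psmb7 (-0.031). The As2S2 libraries have no counts in the table, so that the depth behind their values is unknown.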
